A study of Mus musculus with 5 samples.

Results

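Mural cells are the pericytes and smooth muscle cells that wrap the endothelial tube of a blood vessel, and 10 genes that mark them were measured in mouse hearts with and without the long noncoding RNA Charme. The list was given by symbol and holds the receptor Notch3 and its target Heyl, the pericyte genes Rgs5, Pdgfrb, Cspg4 and Abcc9, and the contractile smooth muscle genes Myh11, Acta2, Tagln and Cnn1. All 10 were found among the 49671 genes of the deposited counts, and all 10 were among the 14880 genes that passed a filter of at least 10 counts in at least 2 samples. PolyA RNA was sequenced from whole hearts of C57BL6/J mice at postnatal day 2 (PN2). Hearts of littermates were pooled by genotype, 9 hearts in each of 3 Charme WT pools and 3 hearts in each of 2 Charme KO pools, so that genotype and the number of hearts per pool cannot be told apart. The Charme KO allele carries a PolyA signal inserted into the Charme locus, and the Charme WT pools came from mice without it. The question was whether a lower level of Notch3 went with the pericyte genes or with the contractile genes.

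Notch3 is the Notch receptor of mural cells. A ligand such as Jag1 on the neighbouring endothelial cell triggers its cleavage, and the released domain enters the nucleus, binds the DNA-binding protein Rbpj together with a Maml coactivator, and switches on genes of the Hes and Hey families, of which Heyl is a mural member. Pericytes sit on capillaries and are drawn to them by endothelial Pdgfb acting on the receptor Pdgfrb, whereas smooth muscle cells sit on larger vessels and contract through a set of proteins whose genes are activated by serum response factor (Srf) and myocardin (Myocd). In the heart around birth some of the contractile genes, Acta2 and Tagln above all, are also transcribed in immature cardiomyocytes, so they mark smooth muscle less strictly than Myh11 does.

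Fragments counted on genes ranged from 16721055 to 21646378 per pool. Charme itself was counted 183 to 810 times per Charme WT pool, and 57 and 79 times in the Charme KO pools (log2 fold change -2.49, adjusted p = 0.0763 with edgeR's quasi-likelihood test). Of the other lists of marker genes, those of the salivary gland stood apart: their share of the counts was at most 2.91e-05% in the Charme WT pools but 0.0295% in Charme KO pool 1 and as much as 2.64% in Charme KO pool 2. All 8 skeletal muscle genes and all 10 genes of the G2 and M phases of the cell cycle were also above every Charme WT pool in both Charme KO pools, as were 17.8% of all genes tested. Calls rested on Charme WT pools 1 and 3: without Charme WT pool 1 the test called 2 genes of all those tested, and without Charme WT pool 3 it called 0, with 2190 and 1315 genes at an unadjusted p under 0.05.

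Levels were compared between genes as FPKM, fragments scaled to exon length and to the fragments counted in the pool. Acta2, the smooth muscle actin, was by far the most abundant of the 10 genes, at 392 ± 268 FPKM in Charme WT (SD, n = 3) and 493 ± 85.6 in Charme KO (SD, n = 2). Rgs5, a regulator of G-protein signalling and a leading pericyte gene, came next with pools between 31.8 and 65.8 FPKM. Tagln lay between 25.4 and 32.9 FPKM, Abcc9 between 16.2 and 33.4, Pdgfrb between 6.07 and 16.7, and Cnn1 between 6.99 and 17.9. Heyl lay between 2.90 and 8.08 FPKM, Notch3 between 2.50 and 8.30, Cspg4 between 3.09 and 4.43, and Myh11 between 1.33 and 3.69. Acta2 was the only gene whose pools did not overlap those of its neighbour in this order. From Rgs5 down, the pools of each gene overlapped those of the next. Within every single pool, Abcc9 was above Pdgfrb and Cspg4 was above Myh11. For the other neighbours from Rgs5 down the order changed between pools.

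**Figure D1:**
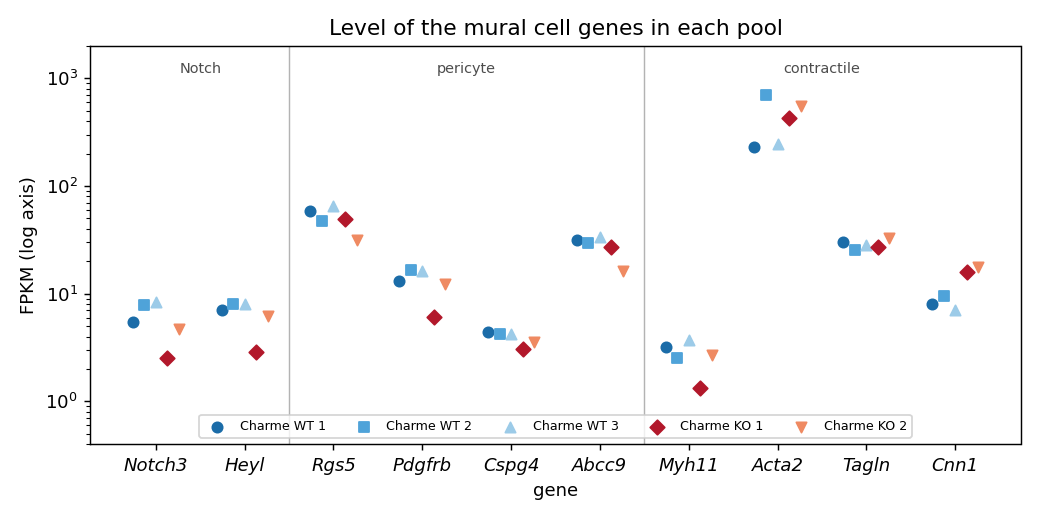
Level of each of the 10 genes in each pool, in FPKM on a log axis, with 1 symbol per pool and the genes grouped as Notch, pericyte and contractile. Acta2 lay above the other 9 genes, and Notch3, Heyl, Pdgfrb, Cspg4 and Myh11 had their lowest symbol in Charme KO pool 1.

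Sequence just upstream of the annotated start is shown for Notch3 itself and for Abcc9, a pericyte gene whose window held the motif through which Notch signals reach DNA. RefSeq windows were used for 6 of the 10 genes (Notch3, Rgs5, Cspg4, Abcc9, Acta2 and Cnn1), not for Heyl, Pdgfrb, Myh11 or Tagln. The windows, on GRCm38, held 300 bases, of which 250 lie before the annotated start. They were searched on both strands for the core bound by Rbpj, TGGGAA, for the GC box GGGCGG bound by Sp family factors, and for the CArG box bound by Srf, here with up to 1 inner base that is neither A nor T. The Rbpj core lay in 25.6% of all 32851 windows, the GC box in 35.7% and this relaxed CArG box in 9.98%. In both stretches, 5′ to 3′ on the minus strand and outside the transcripts of GENCODE M21, the capitals mark the matches.
Abcc9, Rbpj core, chr6:142702478-142702507: ggtggtcctgaaTGGGAAtggccggagtga
Notch3, GC boxes, chr17:32166916-32166945: gccccgGGGCGGggcgagCCGCCCaggcct
Abcc9 held its Rbpj core 221 bases and a GC box 79 bases before the start. Acta2 held relaxed CArG matches that began 84 and 34 bases before its RefSeq start, the latter overlapping an Rbpj core that began 27 bases before it, and GENCODE M21 places all 3 matches inside a longer first exon of Acta2. Notch3 held 4 GC boxes and no Rbpj core, and its window, at 70.0% G and C, was the richest of the 6 in those bases. Neither Rgs5 nor Cnn1 held any of these motifs, Cspg4 held 2 GC boxes, and no window of the 6 held a CArG box with all inner bases A or T, which 1.63% of all windows did. These are matches of letters in a window and were not tested as sites.

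Notch3 was lower in both Charme KO pools, and so was Heyl. In a count test across all genes neither passed the threshold. Notch3 (chr17:32120820-32166852, minus strand) had 44.0, 63.8 and 67.1 CPM (counts scaled to the pool's total, with TMM factors) in Charme WT pools 1 to 3, and 20.3 and 38.1 CPM in Charme KO pools 1 and 2. Both Charme KO pools lay below every Charme WT pool, but Charme KO pool 2 was only a little below Charme WT pool 1. The mean level was 7.21 ± 1.55 FPKM in Charme WT (SD, n = 3) and 3.61 ± 1.56 FPKM in Charme KO (SD, n = 2). On the log2 scale the fold change of Charme KO relative to Charme WT (log2FC) was -0.99, with a standard error (SE) of 0.291. The p-value adjusted across the 14880 genes by Benjamini and Hochberg's method was 0.149 with the quasi-likelihood test of edgeR, where a call needed an adjusted p under 0.1 and a mean of at least 1 FPKM in either genotype. With edgeR's likelihood ratio test, the test the study's methods name, the adjusted p was 0.0451, and with DESeq2 it was 0.0247, so that both called Notch3 as lower. The quasi-likelihood test called 0.524% of all genes as lower, the likelihood ratio test 2.35% and DESeq2 3.21%. Gm17276, an antisense gene that overlaps Notch3, had at most 3 counts in any pool. In whole hearts, fewer mural cells and less RNA per mural cell cannot be told apart.

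Heyl (chr4:123233556-123249875, plus strand), a transcriptional repressor of the Hey family, had 35.8, 40.9 and 41.3 CPM in the Charme WT pools and 14.8 and 31.4 CPM in the Charme KO pools. Its pattern was that of Notch3, with a deep minimum in Charme KO pool 1 and a value just below the Charme WT pools in Charme KO pool 2. The log2FC was -0.76 (SE 0.290, adjusted p = 0.218 with the quasi-likelihood test). Without Charme KO pool 2 the difference was -1.53 for Notch3 (adjusted p = 0.00412 with the quasi-likelihood test) and -1.42 for Heyl (adjusted p = 0.00243), and both were called. That fit has 1 Charme KO pool, which is assumed to vary as the Charme WT pools do, and it called 15.6% of all genes as lower. Without Charme KO pool 1 the difference was -0.61 for Notch3 (adjusted p = 0.220 with the same test) and -0.32 for Heyl (adjusted p = 0.475).

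Of the 4 pericyte genes, Pdgfrb had the pattern of Notch3 while Rgs5 and Abcc9 were lowest in the other Charme KO pool. None of the 4 was called by the quasi-likelihood test, the likelihood ratio test or DESeq2, and 2 of them, Pdgfrb and Abcc9, had an unadjusted p under 0.05 with the quasi-likelihood test. Pdgfrb, the receptor through which pericytes are recruited, had 71.8, 91.6 and 88.9 CPM in the Charme WT pools and 33.2 and 67.2 CPM in the Charme KO pools (log2FC -0.74, SE 0.278, adjusted p = 0.214 with the quasi-likelihood test). The groups did not overlap, and Charme KO pool 1 was again far below the rest. The difference was -1.35 without Charme KO pool 2 (adjusted p = 0.00254 with the same test) and -0.32 without Charme KO pool 1.

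Rgs5 (chr1:169655501-169695813, plus strand) had 267, 215 and 299 CPM in the Charme WT pools and 223 and 145 CPM in the Charme KO pools. Here Charme KO pool 1 lay within the Charme WT range and Charme KO pool 2 below it. Abcc9 (chr6:142587862-142702315, minus strand), the sulfonylurea receptor subunit of the potassium channel of mural and heart muscle cells, had 262, 246 and 280 CPM in the Charme WT pools and 225 and 135 CPM in the Charme KO pools. Charme KO pool 1 lay just below the Charme WT pools and Charme KO pool 2 far below them. The log2FC was -0.51 for Rgs5 (SE 0.231, adjusted p = 0.276 with the quasi-likelihood test) and -0.54 for Abcc9 (SE 0.227, adjusted p = 0.247). Leaving out Charme KO pool 1 gave -0.85 for Rgs5 (adjusted p = 0.0492) and -0.96 for Abcc9 (adjusted p = 0.0132), both called, in a fit that again has 1 Charme KO pool and takes the spread from the Charme WT pools, and that called 1.27% of all genes as lower. Leaving out Charme KO pool 2 gave -0.24 (adjusted p = 0.422) and -0.23 (adjusted p = 0.353).

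Cspg4 (chr9:56865033-56899870, plus strand), the proteoglycan NG2 on the surface of pericytes, had nearly the same level in the Charme WT pools, at 52.9, 50.3 and 50.9 CPM, and 36.8 and 42.4 CPM in the Charme KO pools. The groups did not overlap, and the difference was the smallest of the 4 pericyte genes (log2FC -0.37, SE 0.176, adjusted p = 0.287 with the quasi-likelihood test). The summed CPM of the pericyte genes was 654, 603 and 719 in the Charme WT pools and 518 and 389 in the Charme KO pools. Rgs5 and Abcc9 make up most of this sum, which was therefore lowest in Charme KO pool 2.

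The 4 contractile genes did not move together. Cnn1 (chr9:22099216-22109630, plus strand), the calponin that binds actin in smooth muscle, rose in Charme KO hearts and was the only member called by the quasi-likelihood test. It had 22.1, 26.0 and 19.1 CPM in the Charme WT pools and 43.2 and 49.0 CPM in the Charme KO pools. Both Charme KO pools were well above every Charme WT pool and close to each other. The share of salivary gland genes was 0.0295% and 2.64% in the same pools, and its part in the level of Cnn1 was not tested. The log2FC was 1.04 (SE 0.20, adjusted p = 0.0521 with the quasi-likelihood test), where 1.53% of all genes were called as higher. The call was lost without Charme WT pool 1 (1.03, adjusted p = 0.203) and without Charme WT pool 3 (0.94, adjusted p = 0.341).

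Myh11 (chr16:14194535-14291372, minus strand), the smooth muscle myosin heavy chain and the strictest contractile marker of the list, also had its lowest value in Charme KO pool 1. It had 24.3, 19.0 and 28.1 CPM in the Charme WT pools and 10.1 and 20.5 CPM in the Charme KO pools. Charme KO pool 1 was below all other pools and Charme KO pool 2 lay within the Charme WT range. The log2FC was -0.62 (SE 0.308, adjusted p = 0.307 with the quasi-likelihood test). It was -1.24 without Charme KO pool 2 (adjusted p = 0.0114) and -0.21 without Charme KO pool 1 (adjusted p = 0.747).

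Acta2 (chr19:34241090-34255590, minus strand) had 503, 1538 and 540 CPM in the Charme WT pools and 949 and 1215 CPM in the Charme KO pools. Charme WT pool 2 was the highest of all 5 pools, and the groups overlapped. The same pool was also highest for Actc1, the cardiac actin, with 9061, 15339 and 8976 CPM in the Charme WT pools and 12622 and 13236 CPM in the Charme KO pools. The muscle actin genes are near-identical in coding sequence, which leaves their counts uncertain, and whether this bears on Charme WT pool 2 was not tested. The log2FC of Acta2 was 0.33 (SE 0.430, adjusted p = 0.698 with the quasi-likelihood test), and 1.05 without Charme WT pool 2. Tagln (chr9:45929619-45936058, minus strand), the actin-binding protein transgelin, had 60.5, 50.4 and 56.1 CPM in the Charme WT pools and 54.3 and 65.4 CPM in the Charme KO pools. Its groups overlapped (log2FC 0.10, SE 0.182, adjusted p = 0.780 with the quasi-likelihood test), and without Charme KO pool 2 the sign changed to -0.04. Tagln overlaps the gene Pcsk7, with 425 to 688 counts per pool, on the opposite strand. The kit marks strand and the reverse-strand counts were the ones used.

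**Figure D2:**
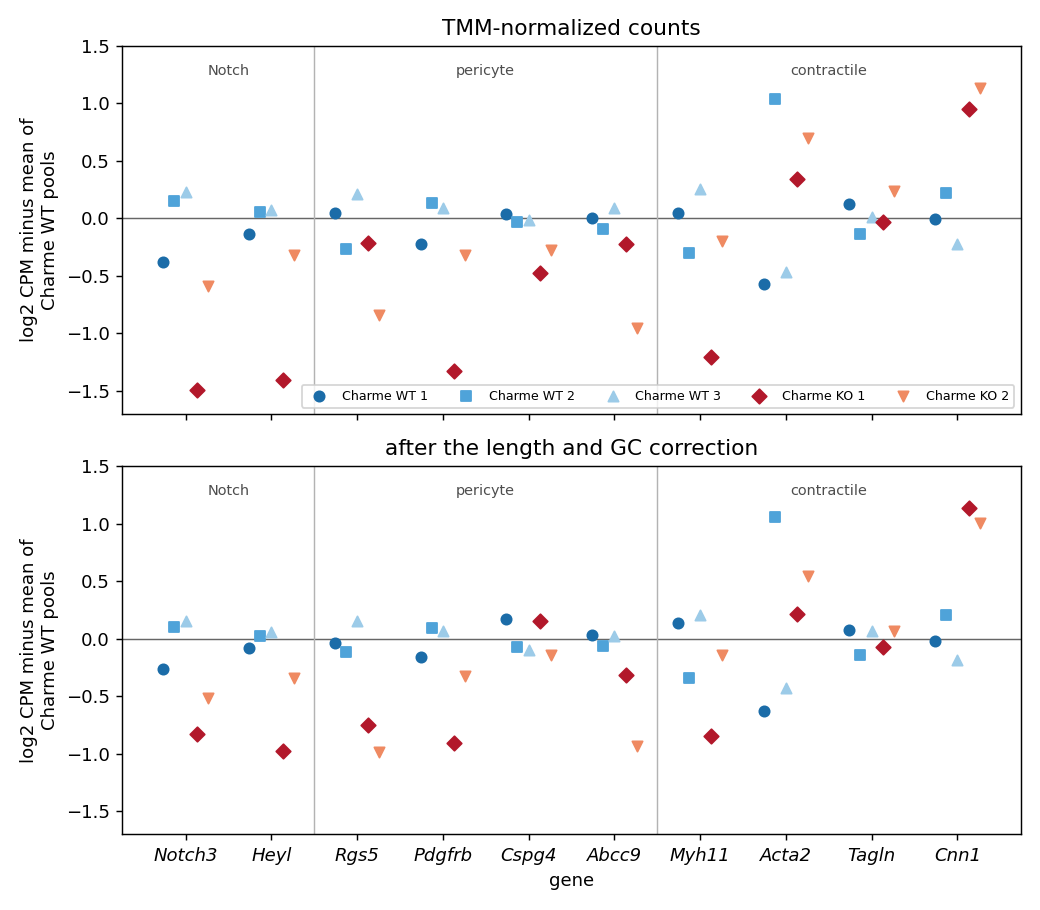
Difference of each pool from the mean of the Charme WT pools on the log2 CPM scale, for the 10 genes, before (upper panel) and after (lower panel) a correction of each pool for gene length and GC content. Before it, Charme KO pool 1 reached -1.50 for Notch3, -1.40 for Heyl, -1.33 for Pdgfrb and -1.21 for Myh11, while Charme KO pool 2 was the lower pool for Rgs5 and Abcc9. Cnn1 was higher in both.

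Counted over the list, 1 of the 10 genes was called as higher and 0 as lower by the quasi-likelihood test, which called 2.05% of all genes in either direction, and 5 had an unadjusted p under 0.05, against 18.6% of all genes. The likelihood ratio test and DESeq2 each called 1 higher and 1 lower, Cnn1 and Notch3, and they called 3.92% and 4.33% of all genes as higher. Both Charme KO pools were below every Charme WT pool for 5 of the 10 (Notch3, Heyl, Pdgfrb, Cspg4 and Abcc9) and above for 1 (Cnn1), against 18.2% and 17.8% of all genes. The median log2FC of the 10 genes was -0.52, beside 0.02 over all genes tested.

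By mean, all 4 pericyte genes were lower in Charme KO (median log2FC -0.52), although Cspg4 was at 0.00246 after the length and GC correction, and of the 4 contractile genes 1 was lower, Myh11, and 3 were not (median 0.22). The members also differed in how the 2 Charme KO pools stood to each other. Relative to the mean of the Charme WT pools, Notch3 was at -1.50 and -0.59 in Charme KO pools 1 and 2 on the log2 CPM scale. Heyl was at -1.40 and -0.32, Pdgfrb at -1.33 and -0.32, and Myh11 at -1.21 and -0.19. Rgs5, at -0.21 and -0.84, and Abcc9, at -0.22 and -0.95, were the 2 members that were lower in Charme KO pool 2. The other 8 were lower in Charme KO pool 1, by the most for Heyl, Myh11, Pdgfrb and Notch3. Cspg4 was at -0.48 and -0.28, Tagln at -0.03 and 0.24, Acta2 at 0.34 and 0.70, and Cnn1 at 0.95 and 1.13. With 2 Charme KO pools, which also differ in their salivary gland share, the differences between those pools were not tested.

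**Figure D3:**
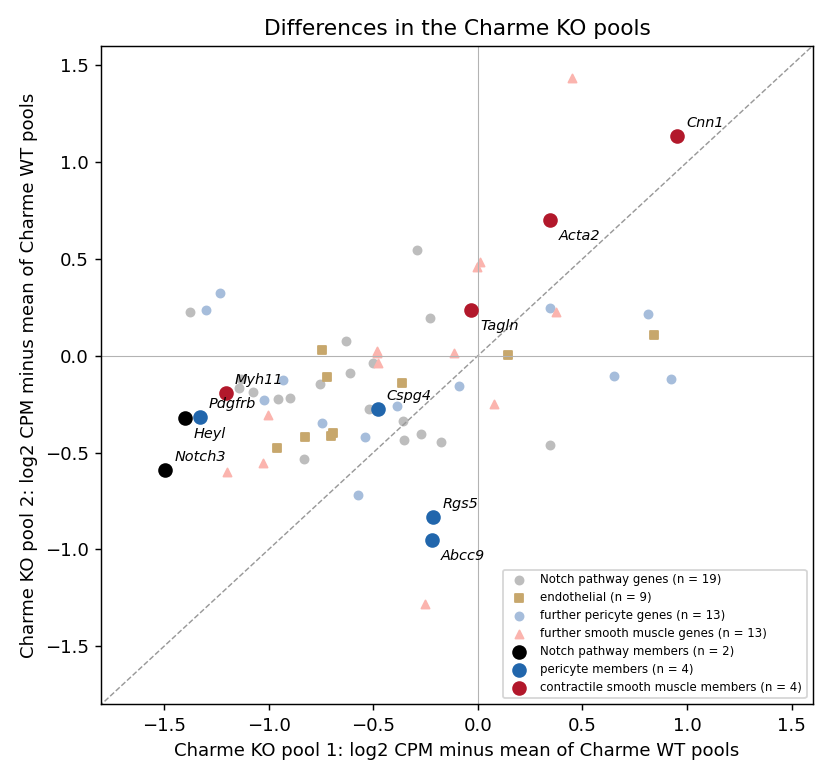
Difference from the mean of the Charme WT pools (log2 CPM) in Charme KO pool 1 (horizontal axis) and Charme KO pool 2 (vertical axis). Large symbols are the 10 genes, small symbols are genes of the further pericyte, further smooth muscle, Notch pathway and endothelial lists, and the dashed line marks equal differences. Notch3, Heyl, Pdgfrb and Myh11 lie together at the left, Rgs5 and Abcc9 lie at the bottom, and Cnn1 lies at the upper right.

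The pattern most like that of Notch3 was sought among 10824 protein-coding genes with a mean of at least 1 FPKM, by the root mean square (RMS) difference of log2 CPM over the 5 pools after each gene was centred on its own mean. Of the 9 other members, Pdgfrb was nearest (RMS 0.148, rank 39), followed by Heyl (0.172, rank 58) and Myh11 (0.329, rank 817). Cspg4 (0.458, rank 2393), Abcc9 (0.604, rank 4695), Rgs5 (0.608, rank 4777), Tagln (0.657, rank 5550), Acta2 (0.938, rank 9588) and Cnn1 (1.08, rank 10350) were farther off. These values are from before the length and GC correction, and likeness was not computed after it. After that correction Charme KO pools 1 and 2 were at -0.83 and -0.52 for Notch3. They were at -0.75 and -0.99 for Rgs5, -0.32 and -0.93 for Abcc9, and -0.85 and -0.14 for Myh11. The 5 genes nearest of all were on none of the mural lists: Shank3, a scaffold of synapses, at 0.0616, the transcription factor gene Nfic at 0.0707, Prr12 at 0.0747, Kif26a at 0.0895, and the histone demethylase gene Kdm6b at 0.0971. Their exons held between 59.0% and 62.1% G and C and were 6630 to 9189 bases long, beside 59.7% and 8089 bases for Notch3. Of these 5 genes Kdm6b was called as lower by the quasi-likelihood test (log2FC -1.05, adjusted p = 0.0917), which called 0.524% of all genes as lower. All 5 were called as lower by the likelihood ratio test (2.35% of all genes) and DESeq2 (3.21%). They were picked for likeness to Notch3 in the same pools. Both of those tests called Notch3 as lower, so the calls follow from the choice and add no separate support. Without Charme KO pool 2 the 5 nearest genes shared 2 with this set, and without Charme KO pool 1 they shared 0. Pdgfrb and Heyl were the nearest members in both settings. Without Charme KO pool 1, Myh11 (RMS 0.358) was farther from Notch3 than Abcc9 (0.285), Cspg4 (0.292) and Rgs5 (0.318). Without Charme KO pool 2 it came next after Heyl, as with all 5 pools.

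Gene length and GC content moved with the difference of several members. In a fit that takes out the trend of each pool on exon length and GC content, the log2FC of Notch3 was -0.67 (adjusted p = 0.120, quasi-likelihood test), with Charme KO pools 1 and 2 at -0.83 and -0.52. Heyl was at -0.97 and -0.34, Pdgfrb at -0.91 and -0.32, and Myh11 at -0.85 and -0.14. The distance between the 2 Charme KO pools was thus smaller for these 4 genes, but the order of the pools was the same. Rgs5, whose exons are the poorest in G and C of the list (41.8%), moved the other way, to -0.87 (adjusted p = 0.0540), and was called as lower, with the 2 pools at -0.75 and -0.99. Cspg4 (58.2% G and C, 11931 bases) changed sign, to 0.00246 (adjusted p = 0.996), with its 2 Charme KO pools at 0.15 and -0.15. Tagln changed sign as well, to -0.000741 (adjusted p = 0.998). Abcc9, at -0.59 (adjusted p = 0.174), and Cnn1, at 1.07 (adjusted p = 0.0432), moved little.

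Within each pool the level of Notch3 was set against that of every other member as a log2 ratio, and an exact permutation test over the 10 assignments of the pools compared the ratios between genotypes. The smallest two-sided p this design allows is 0.1, so no ratio could pass 0.05. For the ratio to Cnn1 the difference, Charme KO minus Charme WT, was -2.09, with both Charme KO pools below every Charme WT pool (exact p = 0.1, adjusted 0.45 over the 9 ratios). For Tagln it was -1.14 and for Acta2 -1.56, both also without overlap (exact p = 0.2 and adjusted 0.45 for each). For Pdgfrb it was -0.22, smaller than the range of 0.30 among the Charme WT pools, yet the groups did not overlap (exact p = 0.2, adjusted 0.45). For Heyl it was -0.18 against a range of 0.401 (exact p = 0.3), and for Myh11 -0.34 against a range of 0.888 (exact p = 0.5). For Rgs5 the difference was -0.52 (exact p = 0.6) and for Abcc9 -0.46 (exact p = 0.7), with Charme KO pool 1 below and Charme KO pool 2 inside or above the Charme WT pools. For Cspg4 it was -0.66 against a range of 0.662 (exact p = 0.3). The difference was larger than the range among the Charme WT pools for Cnn1 (0.819) and Tagln (0.796), about equal to it for Cspg4, and smaller than it for the other 6 genes, Acta2 (1.58) among them. Without Charme KO pool 1 the differences for Rgs5 and Abcc9 changed sign, to 0.25 and 0.37, and that for Rgs5 did so after the length and GC correction too, to 0.20.

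**Figure D4:**
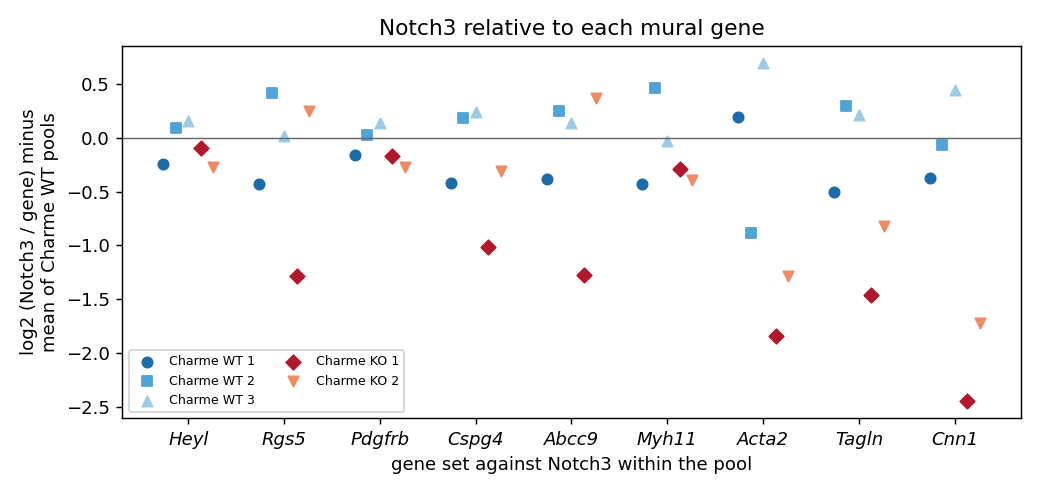
Log2 ratio of Notch3 to each of the other 9 genes within a pool, minus the mean of the Charme WT pools, with 1 symbol per pool. The Charme KO symbols lie close to the Charme WT symbols for Heyl, Pdgfrb and Myh11, apart from each other for Rgs5 and Abcc9, and below the Charme WT symbols for Cnn1, Tagln and Acta2.

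A further 13 pericyte genes showed no call by any of the 3 tests. Both Charme KO pools were below every Charme WT pool for 5 of the 13 and above for 1, beside 18.2% and 17.8% of all genes, and the median log2FC was -0.33. An unadjusted p under 0.05 was found for 2 of the 13, beside 18.6% of all genes. The most abundant, Mcam, an adhesion molecule that endothelial cells carry too, had 184, 195 and 181 CPM in the Charme WT pools and 238 and 222 CPM in the Charme KO pools (log2FC 0.30, adjusted p = 0.352 with the quasi-likelihood test). Ndufa4l2, a mitochondrial protein gene enriched in pericytes, had a log2FC of -0.48 (adjusted p = 0.242), nearly alike in both Charme KO pools at -0.54 and -0.42. Gja4, the gap junction protein connexin 37 of arterial endothelium and mural cells, was at -1.23 and 0.33 in Charme KO pools 1 and 2. Kcnj8, named after its values were seen, encodes the pore of the channel that contains Abcc9. It was at -1.02 and -0.23, and so had its lower value in the Charme KO pool in which Abcc9 was the higher. The summed CPM of the 13 genes was 421, 421 and 437 in the Charme WT pools and 429 and 441 in the Charme KO pools. Mcam, which was higher in both Charme KO pools, was the largest part of this sum. The mean was lower in Charme KO for 9 of the 13 genes, beside 7165 of the 14880 genes tested.

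A further 13 smooth muscle genes gave no call by the quasi-likelihood test. The likelihood ratio test and DESeq2 each called 1 as lower, beside 2.35% and 3.21% of all genes. An unadjusted p under 0.05 with the quasi-likelihood test was found for 4, beside 18.6% of all genes. Of these, Sncg was higher in Charme KO (log2FC 1.14) and the rest were lower. Both Charme KO pools were below every Charme WT pool for 2 of the 13 genes and above for 2, near the shares of 18.2% and 17.8% over all genes, and the median log2FC was -0.21. The called gene was Pcp4l1, a small gene related to the Purkinje cell protein Pcp4 and the most abundant of the list, with 175, 189 and 178 CPM in the Charme WT pools and 88.6 and 123 CPM in the Charme KO pools. Its log2FC was -0.77 (adjusted p = 0.105 with the quasi-likelihood test). Smtn, the gene of the cytoskeletal protein smoothelin, was at -0.22 (adjusted p = 0.579), and Tpm2, beta-tropomyosin, at 0.19 (adjusted p = 0.752). Like Acta2, Tpm2 had its highest value in Charme WT pool 2, at 96.5 CPM against 45.8 and 54.3 CPM in the other Charme WT pools.

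In the Notch pathway, 17 of 19 further genes had a lower mean in Charme KO, beside 7165 of the 14880 genes tested. The quasi-likelihood test called 0 of the 19, with 1 at an unadjusted p under 0.05, beside 18.6% of all genes. Both Charme KO pools were below every Charme WT pool for 5 of the 19 and above for 0, beside 18.2% and 17.8% of all genes. The median log2FC was -0.35, and the median differences of Charme KO pools 1 and 2 were -0.61 and -0.19. The most abundant were Adam10, the protease that makes the first cut in the bound receptor (-0.31, adjusted p = 0.371 with the quasi-likelihood test), Ncstn, a subunit of the gamma-secretase that makes the next (-0.33, adjusted p = 0.407), and Hey2, a target that heart muscle also transcribes (-0.0045, adjusted p = 0.995). DESeq2 called 1 of the 19 genes as lower, beside 3.21% of all genes. It was the coactivator gene Maml1, which had a log2FC of -0.70 (adjusted p = 0.186 with the quasi-likelihood test). The other receptors were at -0.53 for Notch1, -0.35 for Notch2 and -0.58 for Notch4, and the ligand Jag1 was at -0.24, none of them called.

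Of 14 genes of signals that recruit or mature mural cells, the quasi-likelihood test called 0, with 2 at an unadjusted p under 0.05, beside 18.6% of all genes, and the median log2FC was -0.05. The most abundant were Eng, a co-receptor of TGF-beta on endothelium (-0.36, adjusted p = 0.511), the sphingosine phosphate receptor gene S1pr1 (0.16, adjusted p = 0.684) and the endothelial receptor gene Tie1 (-0.44, adjusted p = 0.377). Pdgfb, the ligand of Pdgfrb, had 31.4, 57.3 and 46.0 CPM in the Charme WT pools and 24.7 and 31.8 CPM in the Charme KO pools, so that the groups overlapped slightly (log2FC -0.66, adjusted p = 0.233). Edn1, the vasoconstrictor endothelin-1, was called as higher by the likelihood ratio test and DESeq2 (0.88, adjusted p = 0.174 with the quasi-likelihood test). Those 2 tests called 3.92% and 4.33% of all genes as higher. Of the 4 genes of the Srf and myocardin family 0 were called by any of the 3 tests. Srf was at 0.01, whereas Myocd (-0.60, adjusted p = 0.20) and its relative Mrtfb (-0.69, adjusted p = 0.20) had an unadjusted p under 0.05 and lay below every Charme WT pool in both Charme KO pools.

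Genes of other cell types were read in the same fit. Of 9 endothelial genes the quasi-likelihood test called 0. The likelihood ratio test and DESeq2 called 1 as lower, Cldn5, beside 2.35% and 3.21% of all genes. Among the 9, 5 had an unadjusted p under 0.05 and 5 lay below every Charme WT pool in both Charme KO pools, beside 18.6% and 18.2% of all genes. Of those under 0.05, Emcn was higher in Charme KO (log2FC 0.52) and the rest were lower. The median differences of the 9 genes in Charme KO pools 1 and 2 were -0.70 and -0.14, the same order as for Notch3, Heyl, Pdgfrb and Myh11. Emcn and Pecam1 had the reverse order. The summed CPM of the 9 genes was between 965 and 1213 in the Charme WT pools and 844 and 979 in the Charme KO pools, and their part in the lower Notch3 was not tested. Cdh5, the cadherin of endothelial junctions, was at -0.40 (adjusted p = 0.377 with the quasi-likelihood test), Cldn5, a claudin of the same junctions, at -0.70 (adjusted p = 0.137) and Pecam1 at 0.07 (adjusted p = 0.841). The summed CPM of 7 fibroblast genes was 2565 to 3071 in the Charme WT pools and 3291 and 3690 in the Charme KO pools. The quasi-likelihood test called 0 of them, with 1 at an unadjusted p under 0.05, Postn. The likelihood ratio test and DESeq2 called Postn as higher, beside 3.92% and 4.33% of all genes. Postn, Col1a1 and Col1a2, the most abundant of the fibroblast genes, had log2FCs of 0.70, 0.03 and 0.11. Of 8 cardiomyocyte and 6 macrophage genes the quasi-likelihood test called 0, with 0 and 1 at an unadjusted p under 0.05. DESeq2 called 1 of each list as lower (Myh6 and Cx3cr1), beside 3.21% of all genes. The likelihood ratio test called Cx3cr1 but not Myh6 as lower, beside 2.35% of all genes. The median differences of the cardiomyocyte genes in Charme KO pools 1 and 2 were 0.24 and -0.20, the same order as for Rgs5 and Abcc9. Myh6, Actn2 and Actc1 had the reverse order. The part of cardiomyocytes in the levels of Rgs5 and Abcc9 was not tested. Of 5 Schwann cell genes, the quasi-likelihood test called 1 as higher, beside 1.53% of all genes. It was S100b, at no more than 4.08 CPM in any pool.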

How the data were processed

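RNA-seq was compared between 3 Charme WT and 2 Charme KO pools of PN2 hearts. Per the study's methods and the labels, the authors trimmed the reads with Cutadapt and Trimmomatic, dropped those under 35 nucleotides, aligned the rest with STAR to GRCm38 (mm10) and took reverse-strand fragment counts for the genes of Ensembl release 87. The deposited counts are raw whole numbers, with 1 column per pool. A deposited table of FPKM was not used.

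Genes were filtered on a minimum of 10 counts in 2 or more pools. After TMM normalization they were tested with the quasi-likelihood test of edgeR 4.0.16 (limma 3.58.1, R 4.3.3), with Benjamini-Hochberg adjustment over the 14880 genes. The quasi-likelihood test was used in its newer form. The methods of the study name the likelihood ratio test, which was run as an alternative, as was DESeq2 1.42.0. A call required an adjusted p under 0.1 as well as 1 FPKM or more on average in either genotype. The standard error is the size of the log2 fold change over the square root of F. FPKM were computed from the counts with exon lengths of GENCODE M21. Ratios and likeness used log2 CPM with a prior count of 2. The length and GC correction subtracts from each pool splines with 4 degrees of freedom. Other alternatives were the legacy and robust quasi-likelihood tests, RLE and upper-quartile normalization, filterByExpr or no count filter, a block for the replicate number, a threshold of 0.05, calls without the FPKM minimum, and each pool left out. Fits were tested on simulated data. Promoter windows are those of RefSeq on GRCm38.p6. Depth, between 16721055 and 21646378 counts per pool, puts each of the 10 genes at 143 counts or more.

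The members, lists and tests were chosen with earlier results of these data known. The rule for naming genes took the 10 members, Charme, the 3 most abundant and any called gene of each further list, and the 5 genes nearest to Notch3; not every gene it takes is named. Kcnj8, Maml1, Edn1, Pdgfb, Emcn, Sncg, the other Notch receptors and Jag1 were named beside it, after their values were seen.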

Additional observations from a re-analysis of the deposited data

How the results depend on the processing

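Over 110 comparisons of a member's log2 fold change with an alternative that used all 5 pools, 103 had the same direction and call, 1 lost its call, 4 gained one and 2 changed direction. With 1 pool left out, 40 of 50 had the same direction and call, 2 lost a call, 7 gained one and 1 changed direction. The quasi-likelihood test called 305 genes, the likelihood ratio test 933, DESeq2 1122, an adjusted p under 0.05 111, and the leave-one-out fits 0 (without Charme WT pool 3, with 1315 at an unadjusted p under 0.05) to 4607 (without Charme KO pool 2). Of the 10 members 1 was called, against 2 with the likelihood ratio test, DESeq2 or the length and GC correction, which called 356 of the 14880 genes tested. At an adjusted p under 0.05 it was 0, with 5 at an unadjusted one. Leave-one-out fits called 0 (without Charme WT pool 1 or 3, with 4 and 2 members at an unadjusted p under 0.05) to 6 members (without Charme KO pool 2), and 3 when Charme KO pool 1 was the one left out. The fit without Charme KO pool 2 tested 14536 genes and the fit without Charme KO pool 1 tested 14757. Each rests on 1 Charme KO pool and takes the spread from the Charme WT pools. Their counts of called members and genes therefore cannot be set beside those of the other fits. The sign changed for Cspg4 (0.00246) and Tagln (-0.000741) after the length and GC correction, and for Tagln between the leave-one-out fits (-0.0448 to 0.232). The log2 ratio of Notch3 to Rgs5 changed sign after that correction (0.198), and with a pool left out it ranged from -1.28 (Charme KO pool 2) to 0.247 (Charme KO pool 1), and that to Abcc9 from -1.28 to 0.366 for the same pools. The causes of these changes were not tested.

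Replicate numbers are shared by 2 pools of each genotype, whose deviations from the group mean correlated at 0.137 (number 1) and 0.0778 (number 2). With 2 Charme KO pools, the deviations of those pools mirror each other, so these values cannot settle whether the numbers pair the pools. The main test did not take them as pairing. With the number as a block 210 genes were called, and 131 with the block and the length and GC correction. In the block fit Notch3 was called (-0.93, adjusted p = 0.0991) and Cnn1 was not (0.94, adjusted p = 0.104). With 3 and 2 pools, 9 of the 10 members did not pass the quasi-likelihood threshold, which does not show that their levels were alike. The deposited FPKM, planned as an alternative, were not run.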
